A study of Mus musculus with 16 samples.

Results

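Phase II conjugation enzymes attach a polar group to drugs, hormones, bilirubin, bile acids and reactive lipids, which makes them soluble and ready for export. The members described here were the protein-coding rows of the deposited gene table whose names mark cytosolic and mitochondrial glutathione transferases (Gst), microsomal glutathione transferases (Mgst), UDP-glucuronosyltransferases (Ugt) and sulfotransferases (Sult). They number 56 of 23258 rows: 21 Gst, 3 Mgst, 11 Sult, 9 Ugt1a, 9 Ugt2, and 3 Ugt3 and Ugt8 genes. The rule reads gene names and biotypes and uses no measured value.

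RNA of mouse liver was sequenced in 16 libraries of the C57BL/6 strain. The groups were liver-specific miR-33 knockout on high-fat diet (HFD KO, 5 libraries), wild type on high-fat diet (HFD WT, 4), liver-specific miR-33 knockout on chow (chow KO, 4) and wild type on chow (chow WT, 3). The name of the deposited table includes Alb-Cre, a recombinase under the hepatocyte albumin promoter, and no value here tests where it acted. The labels give no age, sex, feeding time, high-fat formula or batch, and do not say that libraries came from separate animals, so p-values measure the spread between these libraries, which may be technical. Sample titles are numbered in different series on the 2 diets, so diet and number series cannot be told apart. Library totals were 15888436 to 29469645 estimated counts, of which the 56 members took 0.899% to 1.34%.

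The study compared knockout with wild-type livers under both diets. For the conjugation enzymes this gives 5 comparisons: high-fat diet against chow within each genotype, knockout against wild type on each diet, and the difference of the knockout effect between diets. Values are CPM (counts scaled to library size) on TMM-scaled library totals. Log2 fold changes are given ± SE from an edgeR quasi-likelihood fit to all libraries, with Benjamini-Hochberg adjusted p over the 16830 genes tested and a threshold of 0.05.

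As background, glutathione transferases join glutathione to electrophiles, including the aldehydes formed when lipids are oxidised. Many Gst genes are known targets of the transcription factor NRF2, which binds antioxidant response elements, and of the xenobiotic receptors CAR, PXR and AHR. Ugt enzymes transfer glucuronic acid from UDP-glucuronate, and Ugt1a1 clears bilirubin. Sult enzymes transfer sulfate from PAPS to steroids, bile acids and phenols. In mice several conjugation genes also differ between the sexes under the pattern of growth hormone release, acting through STAT5B.

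Some members are near copies of each other, which bears on every count below. The first 75 coding bases of Gsta1 and its neighbours, read from GENCODE M21 transcripts, are shown because few letters separate Gsta1 from its near copies. Gsta2 carries the same 75 letters as Gsta1, and Gm3776, a gene model beside them, differs from Gsta1 at 2 of 672 coding bases. Capitals mark letters that differ from Gsta1.
Gsta1 (chromosome 9): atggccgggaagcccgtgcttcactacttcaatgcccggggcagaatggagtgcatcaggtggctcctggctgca
Gm3776 (chromosome 9): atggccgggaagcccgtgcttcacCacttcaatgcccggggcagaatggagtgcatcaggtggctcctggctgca
Gsta3 (chromosome 1): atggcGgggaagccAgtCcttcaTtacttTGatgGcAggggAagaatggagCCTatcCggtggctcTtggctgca
Gsta3 differs from Gsta1 at 14 of these 75 letters. Of all windows of 75 bases in the annotated transcripts of Gsta1, 84.7% also occur in another gene, mostly Gm3776, against 36.6% for Gsta2 and 0% for Gsta3 and Gsta4. The labels give the read length both as 45 cycles and as 75 bases, and for windows of 45 bases the shares were 91.2% for Gsta1, 53.4% for Gsta2, 0.639% for Gsta3 and 0% for Gsta4.

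The same comparison is shown for the Gstm1 and Gstm3 pair on chromosome 3, since both turn up in the diet comparison. Capitals mark letters of Gstm3 that differ from Gstm1.
Gstm1: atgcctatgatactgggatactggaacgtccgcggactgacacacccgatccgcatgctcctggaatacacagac
Gstm3: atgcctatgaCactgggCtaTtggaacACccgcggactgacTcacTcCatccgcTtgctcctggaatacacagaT
They differ at 10 of the 75 letters. Shared windows were 11.7% of Gstm1 and 21.6% of Gstm3, mostly with each other and the pseudogenes Gstm2-ps1 and Gm8834, and at 45 bases 20.99% and 30.9%. Among the Ugt1a genes, which splice private first exons to common later exons, 51.2% to 78.8% of windows were shared, or 52.3% to 80.95% at 45 bases. For Ugt2b5 and Ugt2b38 the shares were 30.4% and 28.01%, or 44.8% and 41.2% at 45 bases. For Gstp1 and Gstp2 they were 29.2% and 50.1%, or 34.8% and 55.5% at 45 bases. Values of these genes are uncertain one by one, and sums over near copies are given beside them.

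The promoters of the most strongly raised members and of the raised member with an antioxidant response element are shown from RefSeq on GRCm38.p6, 250 bases before to 50 after the start of the transcript. Capitals mark matches to the antioxidant response element TGACNNNGC, the palindrome TTCNNNGAA that STAT5 binds, and the AHR core GCGTG, searched on both strands.
Gsta1, chr9:78230419-78230718, + strand: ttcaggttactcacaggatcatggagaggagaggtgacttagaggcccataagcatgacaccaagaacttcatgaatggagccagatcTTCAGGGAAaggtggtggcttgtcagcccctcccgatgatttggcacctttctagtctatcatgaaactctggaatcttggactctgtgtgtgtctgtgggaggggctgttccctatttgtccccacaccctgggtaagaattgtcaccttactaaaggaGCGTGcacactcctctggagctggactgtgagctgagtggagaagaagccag
Gsta3, chr1:21240335-21240634, + strand: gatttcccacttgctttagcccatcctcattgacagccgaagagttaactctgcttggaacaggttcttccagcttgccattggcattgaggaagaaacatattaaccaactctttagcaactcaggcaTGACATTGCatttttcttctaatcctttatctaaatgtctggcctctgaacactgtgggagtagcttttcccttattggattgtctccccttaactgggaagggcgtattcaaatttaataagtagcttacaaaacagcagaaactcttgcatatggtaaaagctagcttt
Gstm3, chr3:107969125-107969424, - strand: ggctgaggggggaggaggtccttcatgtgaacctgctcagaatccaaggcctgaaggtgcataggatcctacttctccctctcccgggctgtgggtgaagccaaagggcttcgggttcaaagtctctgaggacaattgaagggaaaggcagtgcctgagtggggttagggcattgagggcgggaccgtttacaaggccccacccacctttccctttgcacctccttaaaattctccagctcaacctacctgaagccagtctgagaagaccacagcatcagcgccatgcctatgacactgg
The Gsta1 window held a TTCNNNGAA match starting at -162 from the start site and a GCGTG match starting at -2, the Gsta3 window a TGACNNNGC match starting at -121, and the Gstm3 window none of the 3. RefSeq windows were found for 50 of 56 members, 61 windows in all. TGACNNNGC occurred in 6.56% of them, in Gsta3, Gstm5, Gstm7 and Mgst1, against 12.39% of all 32851 promoter windows. TTCNNNGAA occurred in 9.84% of the members' windows, against 8.3% of all windows, and GCGTG in 21.31%, against 32.39%. A match is a description of letters, and an absent match says nothing of the factor.

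The library HFD KO 1 stood apart from the other HFD libraries and lay nearer to chow in several genes. Hsd3b5, a steroid dehydrogenase of male mouse liver, had 74.0 CPM in it, against 0.03 to 0.52 CPM in the other 8 HFD libraries and 7.93 to 86.0 CPM on chow. Slco1a1, a male-biased organic anion transporter, had 159 CPM in it, against 3.14 to 17.0 CPM in those 8 libraries. Counts of calls on diet are therefore given with and without HFD KO 1, and single values without it where a call or a direction changes. The Y-linked gene Ddx3y was at 44.1 to 81.7 CPM and Xist at no more than 0.71 CPM in all 16 libraries. Markers of the labelled tissue were present, with 13 hepatocyte marker genes summing to 79393 to 99473 CPM in HFD KO, 81231 to 99433 CPM in HFD WT, 111100 to 120807 CPM in chow KO and 108136 to 118032 CPM in chow WT livers.

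Expression of the members covered a wide range. Compared per length, as TPM (counts over exonic length, scaled to an equal total in each library), Mgst1 had the highest mean level at 1855 ± 181 TPM (SD, n = 16 libraries), followed by Gstm1 at 1453 ± 570 TPM, Ugt2b5 at 939 ± 189 TPM, Ugt1a1 at 783 ± 112 TPM, Gstp1 at 771 ± 276 TPM and Ugt2b36 at 598 ± 107 TPM. Each of these neighbours in the order overlapped in range. Mgst1 protects membranes from lipid peroxides, and Gstm1 and Gstp1 are abundant cytosolic transferases of male mouse liver. Of the 56 members 49 passed the filter on low counts, and the other 7, Gsto2, Mgst2, Sult2a2, Sult3a1, Sult6b1, Ugt2a2 and Ugt8a, never exceeded 6.86 estimated counts in a library and were not tested. The filter used group sizes, so a member could pass on expression in 1 group.

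On high-fat diet, members changed in both directions, with Gst and Sult genes on both sides and no Ugt gene passing as higher in either genotype on the TMM scale with all libraries. In knockout livers 12 of 49 tested members were higher on high-fat diet than on chow, where 17.4% of all genes were called higher, and 11 were lower, where 16.2% were. In wild-type livers 9 of 49 were higher, where 15.2% of all genes were called, and 15 were lower, where 14.2% were. Without HFD KO 1 the counts were 14 higher and 11 lower in knockout (18.4% and 16.1% of all genes) and 12 higher and 17 lower in wild type (16.3% and 14.1%). The median log2 fold change over the members was -0.01 in knockout and -0.24 in wild type, beside -0.01 and -0.02 over all genes. In bulk liver, fewer cells of a type and less RNA per cell cannot be told apart.

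Changes on diet are relative to the TMM centre of all genes. On library totals alone the median of all genes moved to 0.32 in knockout and 0.24 in wild type, and 22 members were then called higher and 4 lower in knockout, and 17 higher and 6 lower in wild type. On that scale 41.2% of all genes were called higher and 4.77% lower in knockout, and 28.2% and 4.21% in wild type. With a ribosomal RNA gene also left out of the totals, 19 members were higher and 7 lower in knockout (31.1% and 7.16% of all genes), and 17 and 7 in wild type (27.7% and 5.19%). That gene took 0.637% to 12.3% of the counts in HFD libraries and 2.54% to 14.6% in chow libraries. Every member called higher kept its call on library totals alone (12 of 12 in knockout, 9 of 9 in wild type), while 4 of 11 and 6 of 15 called lower kept theirs. All signs were the same on the TMM scale and on totals alone among the called members except Gstz1 in wild type. On totals alone 2 Ugt genes passed as higher in both genotypes, Ugt1a6b (0.42 in knockout and 0.40 in wild type) and Ugt2b36 (0.46 in knockout and 0.36 in wild type), and Ugt1a6a passed in knockout (0.69). Of the members called higher on both scales, Gsta3 was at log2 0.84, adjusted p = 9.2e-05 in knockout and log2 0.69, adjusted p = 0.0025 in wild type on totals alone, and Gstt1 at log2 0.60, adjusted p = 1.8e-04 in knockout.

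Leaving out HFD KO 1 changed the calls of 13 member and genotype pairs. In knockout Gstp2 and Ugt2b37 were no longer called, while Gstm2, Gstm5, Sult1d1 and Sult2a8 were. In wild type, where that library enters through the shared spread and scaling, Gstz1 was no longer called, while Gsta2, Gstm2, Gstm4, Gstp2, Ugt1a5 and Ugt2b38 were.

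The largest change was in Gsta1, an alpha-class transferase that reduces lipid hydroperoxides and conjugates the aldehyde 4-hydroxynonenal (chromosome 9, 78230656 to 78242684 in mm10). It had 5.66, 29.8, 51.7, 43.9 and 23.9 CPM in HFD KO livers, 17.3, 25.6, 21.9 and 17.9 CPM in HFD WT livers, 0.706, 0.259, 0.283 and 0.353 CPM in chow KO livers, and 0.329, 0.0582 and 0.71 CPM in chow WT livers. Every HFD liver, HFD KO 1 included, lay above every chow liver, where the transcript was near the limit of detection. Chow libraries held 1.49 to 12.71 estimated counts of Gsta1. It could pass the filter on HFD libraries, and the size of its fold change rests on few chow reads. The log2 fold change was 6.27 ± 0.70 in knockout (adjusted p = 2.6e-05) and 5.82 ± 0.83 in wild type (adjusted p = 2.3e-04). Summed over Gsta1, Gsta2, Gm3776 and Gm10639, the change was 2.85 ± 0.44 in knockout (adjusted p = 3.3e-04) and 2.66 ± 0.51 in wild type (adjusted p = 0.0018). On chow, Gsta2 held 4.60 to 17.2 CPM of that sum and Gsta1 no more than 0.71 CPM. Without HFD KO 1 the Gsta1 change in knockout was 6.56 (adjusted p = 3.6e-08).

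Gsta2 itself, the neighbouring alpha-class gene, had 14.3, 28.2, 27.6, 25.1 and 16.6 CPM in HFD KO livers, 17.2, 15.1, 13.1 and 14.1 CPM in HFD WT livers, 10.1, 10.3, 17.2 and 6.93 CPM in chow KO livers, and 6.63, 4.60 and 12.2 CPM in chow WT livers. The groups overlapped, and the change passed in knockout (1.02 ± 0.29, adjusted p = 0.015) and had an adjusted p of 0.054 in wild type (0.94 ± 0.35), or 0.037 without HFD KO 1. Gsta4, the transferase best known for clearing 4-hydroxynonenal, had 38.7, 58.1, 59.8, 61.3 and 51.2 CPM in HFD KO livers, 52.4, 43.5, 41.6 and 40.4 CPM in HFD WT livers, 24.1, 21.5, 30.6 and 20.8 CPM in chow KO livers, and 24.9, 14.9 and 31.1 CPM in chow WT livers. All HFD livers lay above all chow livers. Its change was 1.16 ± 0.19 in knockout (adjusted p = 2.2e-04) and 0.91 ± 0.21 in wild type (adjusted p = 0.0044). Gsta3, the most abundant alpha-class member, which conjugates activated aflatoxin in mice, had 872, 930.0, 1109, 881 and 964 CPM in HFD KO livers, 1020.4, 844, 904 and 739 CPM in HFD WT livers, 743, 653, 596 and 678 CPM in chow KO livers, and 821, 494 and 623 CPM in chow WT livers. It rose by 0.51 ± 0.13 in knockout (adjusted p = 0.0046) and 0.44 ± 0.14 in wild type (adjusted p = 0.027), with chow WT 1 inside the HFD WT range, and the wild-type call was lost without HFD WT 1, HFD WT 3, chow WT 2 or chow WT 3 (log2 0.28 to 0.43, adjusted p = 0.055 to 0.17).

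**Figure D1:**
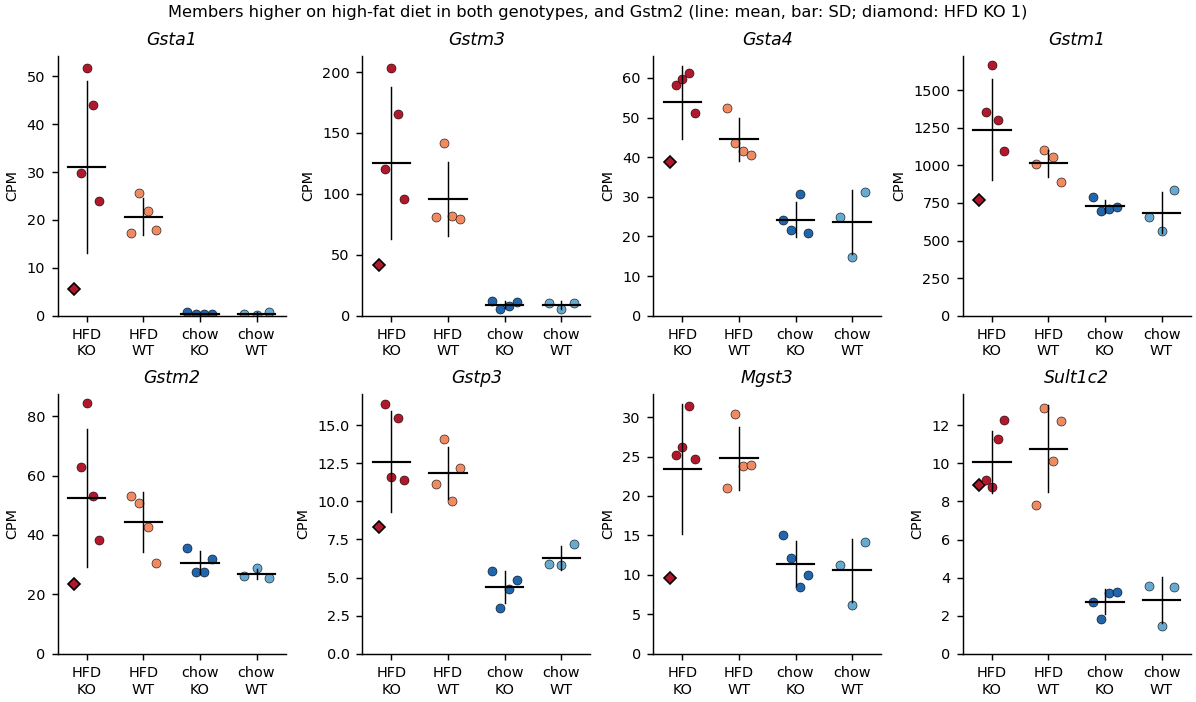
CPM per library (vertical axis) for 8 members in the HFD KO, HFD WT, chow KO and chow WT groups, with the mean as a line and 1 SD as a bar; the diamond is HFD KO 1. In Gsta1 the HFD libraries lie between 5.66 and 51.7 CPM and the chow libraries at or below 0.71 CPM, while in Gstm2 the lowest HFD library, HFD KO 1 at 23.4 CPM, lies below all chow libraries.

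The mu-class genes lie together on chromosome 3, and the most strongly raised among them was Gstm3 (107963696 to 107969283). It had 41.5, 120.2, 203, 165 and 96.1 CPM in HFD KO livers, 81.2, 142, 81.5 and 79.2 CPM in HFD WT livers, 12.1, 5.77, 7.58 and 11.0 CPM in chow KO livers, and 10.3, 5.42 and 10.6 CPM in chow WT livers. The groups on the 2 diets did not overlap, HFD KO 1 was the lowest HFD library and HFD WT 2 stood above the other HFD WT livers. The change was 3.78 ± 0.46 in knockout (adjusted p = 5.5e-05) and 3.45 ± 0.52 in wild type (adjusted p = 3.6e-04), and 4.03 in knockout without HFD KO 1 (adjusted p = 3.4e-06). Gstm1, the main hepatic mu-class enzyme, had 767, 1356, 1671, 1299.6 and 1094 CPM in HFD KO livers, 1009, 1100.1, 1057 and 891 CPM in HFD WT livers, 791, 694, 708 and 721 CPM in chow KO livers, and 655, 566 and 839 CPM in chow WT livers. In knockout the diets overlapped at HFD KO 1, and in wild type they did not overlap. Gstm1 changed by 0.76 ± 0.17 in knockout (adjusted p = 0.0020) and 0.56 ± 0.19 in wild type (adjusted p = 0.032), and the wild-type call was lost without HFD WT 1, HFD WT 2, HFD WT 3, chow WT 1 or chow WT 2 (log2 0.44 to 0.57, adjusted p = 0.051 to 0.15). Gstm1, Gstm3 and their 2 pseudogenes summed gave 0.88 ± 0.18 in knockout (adjusted p = 0.0013) and 0.68 ± 0.20 in wild type (adjusted p = 0.019).

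Gstm2, another mu-class gene, had 23.4, 62.8, 84.4, 53.3 and 38.4 CPM in HFD KO livers, 53.0, 50.9, 42.8 and 30.6 CPM in HFD WT livers, 35.6, 27.5, 27.7 and 32.1 CPM in chow KO livers and 26.3, 28.9 and 25.4 CPM in chow WT livers. It did not pass with all libraries (adjusted p = 0.053 in knockout and 0.12 in wild type). Without HFD KO 1 it passed in both, at log2 0.98 in knockout (adjusted p = 0.0024) and 0.74 in wild type (adjusted p = 0.024). The other mu-class genes, Gstm4, Gstm5, Gstm6 and Gstm7, had log2 fold changes between -0.40 and 0.62 over both genotypes and passed in neither. Without HFD KO 1, Gstm5 passed in knockout (log2 0.61, adjusted p = 0.049) and Gstm4 passed as lower in wild type (-0.38, adjusted p = 0.037).

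In the pi class on chromosome 19, Gstp3 rose in both genotypes while the abundant Gstp1 did not pass in either. Gstp3 had 8.28, 16.4, 11.6, 15.5 and 11.4 CPM in HFD KO livers, 11.2, 14.1, 10.02 and 12.2 CPM in HFD WT livers, 5.43, 3.02, 4.25 and 4.86 CPM in chow KO livers, and 5.88, 5.82 and 7.22 CPM in chow WT livers. Its HFD and chow groups did not overlap. The change was 1.53 ± 0.20 in knockout (adjusted p = 1.7e-05) and 0.91 ± 0.22 in wild type (adjusted p = 0.0044). Gstp1, a pi-class enzyme that is higher in male than in female mouse liver, had 1233, 453, 531, 480.4 and 498 CPM in HFD KO livers, 445, 422, 463 and 365 CPM in HFD WT livers, 550.1, 638, 668 and 415 CPM in chow KO livers, and 404, 593 and 598 CPM in chow WT livers. HFD KO 1 held more than any other library. Its change was 0.17 ± 0.27 in knockout (adjusted p = 0.67) and turned to -0.19 without that library (adjusted p = 0.32), while in wild type it was -0.33 ± 0.31 (adjusted p = 0.46). Summed over Gstp1, Gstp2 and the pseudogene Gstp-ps, the change was 0.17 ± 0.27 in knockout (adjusted p = 0.68), or -0.20 without HFD KO 1 (adjusted p = 0.30), and -0.34 ± 0.31 in wild type (adjusted p = 0.44). The near copy Gstp2, at 3.98 CPM or less, rose in knockout (1.17 ± 0.40, adjusted p = 0.030), a call that was lost without HFD KO 1, chow KO 1 or chow KO 2 (log2 0.79 to 1.09, adjusted p = 0.078 to 0.089).

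Other glutathione transferases fell or moved little. Gsto1, an omega-class enzyme that reduces dehydroascorbate, had 58.1, 59.2, 53.9, 58.3 and 49.9 CPM in HFD KO livers, 58.1, 43.6, 55.2 and 51.0 CPM in HFD WT livers, 83.1, 70.7, 87.3 and 78.8 CPM in chow KO livers, and 82.4, 75.9 and 89.5 CPM in chow WT livers. All HFD livers were below all chow livers, with log2 fold changes of -0.52 ± 0.09 (adjusted p = 2.2e-04) in knockout and -0.67 ± 0.10 (adjusted p = 9.0e-05) in wild type. On library totals alone the knockout call was lost (log2 -0.20, adjusted p = 0.099). With the ribosomal RNA gene also left out of those totals it was kept (log2 -0.31, adjusted p = 0.0051). Gstt2, a theta-class enzyme, had 21.997, 22.4, 22.4, 24.1 and 18.6 CPM in HFD KO livers, 19.1, 19.9, 18.9 and 15.9 CPM in HFD WT livers, 36.5, 32.2, 53.6 and 31.2 CPM in chow KO livers, and 35.9, 33.3 and 41.5 CPM in chow WT livers. It was again lower in every HFD liver than in every chow liver, at log2 -0.81 ± 0.13 in knockout (adjusted p = 1.7e-04) and -0.99 ± 0.15 in wild type (adjusted p = 1.1e-04). Gstt1, its theta-class neighbour, rose in knockout by 0.27 ± 0.09 (adjusted p = 0.020), a call lost without chow KO 2 (log2 0.21, adjusted p = 0.082), and had 0.17 ± 0.10 in wild type (adjusted p = 0.22). Gstz1, which isomerises maleylacetoacetate in tyrosine breakdown, fell in wild type (log2 -0.24 ± 0.09, adjusted p = 0.049), and this call was lost on library totals alone (log2 0.02, adjusted p = 0.92). The Gstz1 call was also lost without HFD KO 1, HFD KO 2, HFD KO 3, HFD KO 4, HFD KO 5, HFD WT 2, HFD WT 4, chow KO 1, chow KO 2, chow KO 4, chow WT 1 or chow WT 3 (log2 -0.24 to -0.18, adjusted p = 0.053 to 0.19). The kappa-class gene Gstk1 had -0.01 ± 0.10 in knockout and 0.01 ± 0.11 in wild type, and the theta-class Gstt3 had 0.38 ± 0.29 in knockout and -0.16 ± 0.32 in wild type, with no call.

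Of the microsomal transferases, Mgst3, which also makes leukotriene C4, rose on high-fat diet. It had 9.55, 25.1, 26.3, 31.5 and 24.7 CPM in HFD KO livers, 20.98, 30.4, 23.7 and 23.9 CPM in HFD WT livers, 15.1, 12.1, 8.50 and 10.03 CPM in chow KO livers, and 11.2, 6.23 and 14.2 CPM in chow WT livers. HFD KO 1 lay among the chow livers and the other HFD livers above them. Mgst3 changed by 1.03 ± 0.30 in knockout (adjusted p = 0.016) and 1.23 ± 0.35 in wild type (adjusted p = 0.016), the second being lost without chow WT 2 (log2 0.96, adjusted p = 0.075). The knockout value without HFD KO 1 was 1.25 (adjusted p = 2.4e-04). Mgst1, the most abundant member per length, had 1488, 1553, 1908, 1377 and 1572 CPM in HFD KO livers, 1700.0, 1460.1, 1640.2 and 1378 CPM in HFD WT livers, 1991, 1856, 1664 and 1921 CPM in chow KO livers, and 1983, 1949.6 and 1930.2 CPM in chow WT livers. It fell in wild type (log2 -0.34 ± 0.10, adjusted p = 0.020), with no overlap between HFD WT and chow WT, and had -0.23 ± 0.09 in knockout (adjusted p = 0.057). Its wild-type call was lost without HFD WT 2, HFD WT 4, chow WT 1 or chow WT 2 (log2 -0.34 to -0.29, adjusted p = 0.053 to 0.068) and on library totals alone (-0.08, adjusted p = 0.64).

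Of 8 tested sulfotransferases, 2 were higher and 1 lower in knockout, or 3 and 2 without HFD KO 1, where 17.4% and 16.2% of all genes were called. In wild type 2 were higher and 3 lower with and without that library, where 15.2% and 14.2% were called. Sult1c2, a phenol sulfotransferase, had 8.85, 9.12, 8.77, 11.3 and 12.3 CPM in HFD KO livers, 7.83, 12.9, 10.1 and 12.2 CPM in HFD WT livers, 2.72, 1.81, 3.19 and 3.22 CPM in chow KO livers, and 3.58, 1.46 and 3.49 CPM in chow WT livers. All HFD livers lay above all chow livers, and the change was 1.89 ± 0.23 in knockout (adjusted p = 1.2e-05) and 1.91 ± 0.27 in wild type (adjusted p = 5.1e-05). Sult1e1, the oestrogen sulfotransferase, stayed at or below 1.49 CPM and rose in knockout by 3.06 ± 0.78 (adjusted p = 0.0058), with 2.21 ± 0.88 in wild type (adjusted p = 0.066). Its chow KO libraries held 0.0543, 0, 0.283 and 0.0442 CPM, so its fold change rests on few reads, and it could pass the filter on HFD libraries. Sult1d1, which sulfates catecholamines, had 101, 131, 123, 104 and 94.1 CPM in HFD KO livers, 131, 96.1, 130.1 and 106 CPM in HFD WT livers, 101, 73.9, 91.4 and 72.1 CPM in chow KO livers, and 91.9, 54.9 and 78.5 CPM in chow WT livers. It rose in wild type by 0.62 ± 0.17 (adjusted p = 0.012), a call lost without chow WT 2 (log2 0.44, adjusted p = 0.068), and had 0.39 ± 0.15 in knockout (adjusted p = 0.054, or 0.041 without HFD KO 1).

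Sult2a8, a bile acid sulfotransferase of mouse liver on chromosome 7 (14410686 to 14446769), had 422, 211, 202, 53.6 and 220.0 CPM in HFD KO livers, 269, 101, 149 and 102 CPM in HFD WT livers, 465, 455, 458 and 465 CPM in chow KO livers, and 495, 481 and 421 CPM in chow WT livers. Chow livers lay close together, HFD KO 1 was within their range, and the other HFD livers were all lower and spread over a wide range. It fell in wild type (log2 -1.59 ± 0.49, adjusted p = 0.029) and had -1.06 ± 0.43 in knockout (adjusted p = 0.078). The wild-type call was lost without HFD WT 2, HFD WT 3, HFD WT 4, chow WT 1, chow WT 2 or chow WT 3 (log2 -1.65 to -1.43, adjusted p = 0.054 to 0.078), and on library totals alone (log2 -1.33, adjusted p = 0.051). With the ribosomal RNA gene also left out of those totals it was kept (log2 -1.37, adjusted p = 0.043). Without HFD KO 1 the knockout value was -1.40 (adjusted p = 0.018). Its low-level neighbour Sult2a7 had 1.59, 1.77, 1.18, 0.558 and 1.92 CPM in HFD KO livers, 0.994, 0.417, 1.05 and 1.01 CPM in HFD WT livers, 1.68, 2.11, 2.69 and 2.83 CPM in chow KO livers, and 2.35, 2.39 and 5.92 CPM in chow WT livers, and fell in wild type (log2 -2.04 ± 0.41, adjusted p = 0.0012), against -0.73 ± 0.35 in knockout (adjusted p = 0.12). Sult5a1 fell in wild type (log2 -1.52 ± 0.53, adjusted p = 0.041) at levels of 2.64 CPM or less, and this call was lost without HFD KO 5, HFD WT 1, HFD WT 2, HFD WT 3, chow KO 1, chow WT 1, chow WT 2 or chow WT 3 (log2 -1.53 to -1.41, adjusted p = 0.050 to 0.098), and on library totals alone (log2 -1.25, adjusted p = 0.085). Sult1a1, the main phenol sulfotransferase, had 159.5, 156, 161, 167 and 136 CPM in HFD KO livers, 159, 151, 166 and 160.1 CPM in HFD WT livers, 215, 163, 238 and 193 CPM in chow KO livers, and 172, 227 and 191 CPM in chow WT livers. It fell in knockout (log2 -0.37 ± 0.10, adjusted p = 0.0075) and had -0.30 ± 0.11 in wild type (adjusted p = 0.051). On library totals alone the knockout call was lost (log2 -0.05, adjusted p = 0.68). Sult1b1, a thyroid hormone sulfotransferase, was not called, at 0.19 ± 0.16 in knockout and -0.23 ± 0.18 in wild type.

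**Figure D2:**
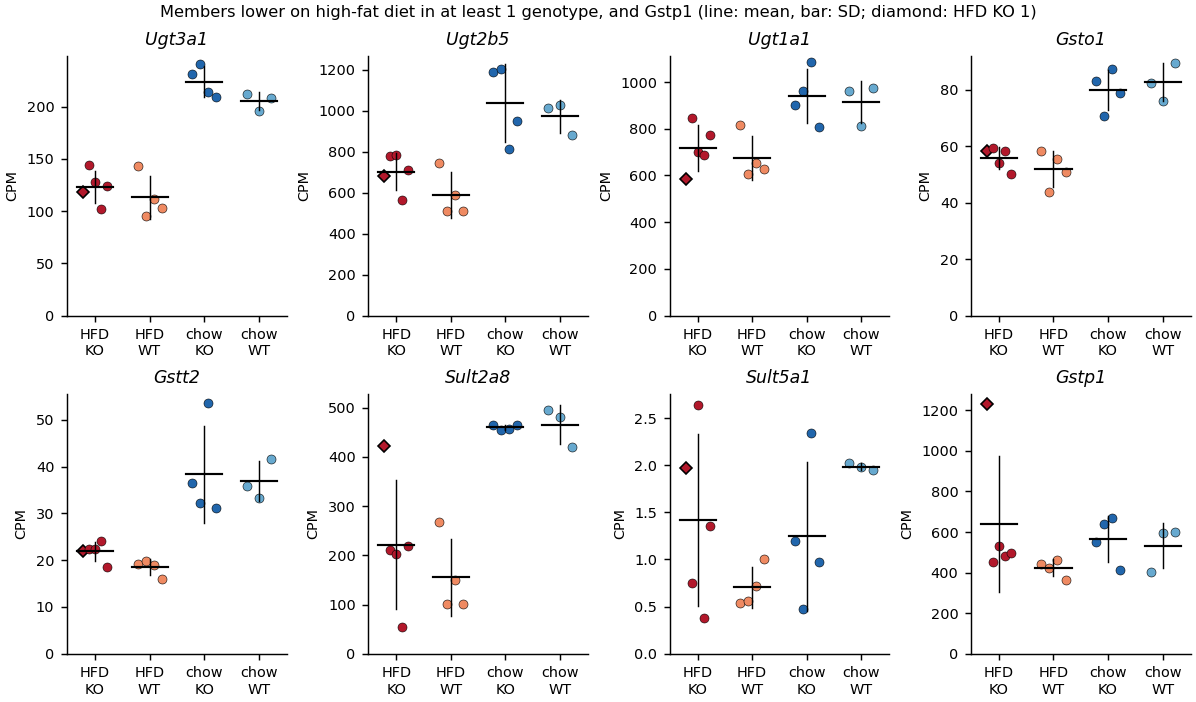
CPM per library (vertical axis) for 8 members in the HFD KO, HFD WT, chow KO and chow WT groups, with the mean as a line and 1 SD as a bar; the diamond is HFD KO 1. Ugt3a1, Gsto1 and Gstt2 are lower in every HFD library than in every chow library, while in Gstp1 the single high point is HFD KO 1 at 1233 CPM.

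Among the Ugt1a genes, which share a locus on chromosome 1 from 88055388 to 88220002, all calls were downward. Ugt1a1, the bilirubin-conjugating form, had 585, 847, 702, 686 and 773 CPM in HFD KO livers, 815, 608, 655 and 629 CPM in HFD WT livers, 902, 963, 1086 and 808 CPM in chow KO livers, and 961, 811 and 974 CPM in chow WT livers. HFD and chow livers overlapped slightly, and the change was -0.39 ± 0.11 in knockout (adjusted p = 0.014) and -0.44 ± 0.13 in wild type (adjusted p = 0.016). The call was lost in knockout without chow KO 3 (log2 -0.31, adjusted p = 0.057), and in wild type without HFD WT 2, chow WT 1 or chow WT 3 (log2 -0.40 to -0.39, adjusted p = 0.052 to 0.067). Both calls were lost on library totals alone, in knockout (log2 -0.06, adjusted p = 0.75) and in wild type (log2 -0.18, adjusted p = 0.39). Ugt1a5 had 26.3, 53.3, 93.8, 61.3 and 94.4 CPM in HFD KO livers, 76.7, 59.96, 57.3 and 73.5 CPM in HFD WT livers, 157, 115, 76.3 and 172 CPM in chow KO livers, and 141, 137 and 119 CPM in chow WT livers. It fell in knockout (log2 -0.98 ± 0.32, adjusted p = 0.030), with -0.99 ± 0.36 in wild type (adjusted p = 0.056), or 0.011 without HFD KO 1. The knockout call was lost without HFD KO 2, HFD KO 4, chow KO 1 or chow KO 4 (log2 -0.96 to -0.82, adjusted p = 0.056 to 0.086), and on library totals alone (log2 -0.63, adjusted p = 0.15).

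Ugt1a9 had 39.1, 60.2, 125, 139.9 and 149 CPM in HFD KO livers, 80.7, 96.5, 49.9 and 118 CPM in HFD WT livers, 133, 118, 233 and 111 CPM in chow KO livers, and 127, 110.4 and 118 CPM in chow WT livers and passed in neither genotype (-0.53 ± 0.38 in knockout and -0.46 ± 0.44 in wild type). The low-level forms Ugt1a10, at or below 4.42 CPM, and Ugt1a8, at or below 1.91 CPM, were lower on high-fat diet. Ugt1a8 had 0 to 0.593 CPM in HFD KO livers and 0.818 to 1.91 CPM in chow KO livers. It could pass the filter on chow libraries, and its fold change rests on few reads. Ugt1a10 changed by -1.44 ± 0.35 in knockout (adjusted p = 0.0039) and -1.39 ± 0.39 in wild type (adjusted p = 0.012), and Ugt1a8 by -2.79 ± 0.79 in knockout (adjusted p = 0.012) and -1.95 ± 0.95 in wild type (adjusted p = 0.13). The phenol-conjugating forms Ugt1a6a and Ugt1a6b, known AHR and NRF2 targets, had log2 fold changes of 0.36 and 0.09 in knockout and 0.14 and 0.15 in wild type, none of which passed on the TMM scale with all libraries. Ugt1a6a passed as higher in knockout without HFD KO 4 (0.44, adjusted p = 0.045) or chow KO 1 (0.48, adjusted p = 0.044). Ugt1a2 and Ugt1a7c, at -0.72 and -0.20 in knockout and -0.35 and -0.39 in wild type, did not pass either. The wild-type call of Ugt1a10 was lost without chow WT 1 (log2 -1.10, adjusted p = 0.076). Since most windows of these genes are shared, the 9 rows were also summed over the locus. The sum was 886 to 1239 CPM in HFD KO livers, 998 to 1212 CPM in HFD WT livers, 1306 to 1574 CPM in chow KO livers, and 1232 to 1460.0 CPM in chow WT livers, a change of -0.34 ± 0.10 in knockout (adjusted p = 0.013) and -0.38 ± 0.11 in wild type (adjusted p = 0.017).

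Ugt2 genes, which glucuronidate steroids, bile acids and fatty acids, form a cluster on chromosome 5. Ugt2b5, the most abundant of them per length, had 683, 777, 784, 564 and 709 CPM in HFD KO livers, 745, 511, 588 and 509 CPM in HFD WT livers, 1188, 1206, 813 and 948 CPM in chow KO livers, and 1013, 1027 and 881 CPM in chow WT livers. All HFD livers lay below all chow livers. It fell, at log2 -0.56 ± 0.13 in knockout (adjusted p = 0.0035) and -0.73 ± 0.15 in wild type (adjusted p = 0.0016), and the sum with its near copies Ugt2b37 and Ugt2b38 gave -0.56 ± 0.13 in knockout (adjusted p = 0.0037) and -0.73 ± 0.15 in wild type (adjusted p = 0.0015). On library totals alone the knockout call of Ugt2b5 was lost (log2 -0.23, adjusted p = 0.17). With the ribosomal RNA gene also left out of those totals it was kept (log2 -0.36, adjusted p = 0.028). Ugt2b1 had 413, 285, 301, 182 and 261 CPM in HFD KO livers, 286, 183, 241 and 179.7 CPM in HFD WT livers, 503, 372, 288 and 399 CPM in chow KO livers, and 426, 475 and 275 CPM in chow WT livers. It fell in wild type (log2 -0.82 ± 0.26, adjusted p = 0.030) and had -0.44 ± 0.23 in knockout (adjusted p = 0.16), with HFD KO 1 the highest HFD library. The wild-type call was lost without HFD WT 2, HFD WT 4, chow WT 1 or chow WT 2 (log2 -0.75 to -0.65, adjusted p = 0.081 to 0.13), and on library totals alone (log2 -0.55, adjusted p = 0.085).

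Ugt2b37 fell in both genotypes, at log2 -0.62 ± 0.22 (adjusted p = 0.035) in knockout and -0.72 ± 0.25 (adjusted p = 0.039) in wild type, and Ugt2a3 fell in wild type (log2 -0.38 ± 0.14, adjusted p = 0.042). The knockout call of Ugt2b37 was lost without HFD KO 1, HFD KO 2, HFD KO 4, HFD KO 5, chow KO 1 or chow KO 2 (log2 -0.64 to -0.52, adjusted p = 0.051 to 0.12), and its wild-type call without HFD WT 2, HFD WT 3, HFD WT 4 or chow WT 2 (log2 -0.70 to -0.47, adjusted p = 0.083 to 0.23). The call of Ugt2a3 was lost without HFD WT 2, HFD WT 3, HFD WT 4, chow WT 1 or chow WT 2 (log2 -0.39 to -0.30, adjusted p = 0.066 to 0.15). On library totals alone the calls of Ugt2b37 were lost in knockout (log2 -0.29, adjusted p = 0.26) and wild type (log2 -0.46, adjusted p = 0.16), as was that of Ugt2a3 (log2 -0.12, adjusted p = 0.53). Ugt2b34 had 439.7 to 589 CPM in HFD KO livers, 435 to 546 CPM in HFD WT livers, 463 to 714 CPM in chow KO livers, and 556 to 626 CPM in chow WT livers, and Ugt2b36 had 517 to 693 CPM in HFD KO livers, 473 to 619.8 CPM in HFD WT livers, 506 to 608 CPM in chow KO livers, and 482 to 523 CPM in chow WT livers. These and Ugt2b35, between 167 and 261 CPM, had log2 fold changes between -0.29 and 0.13 and passed in neither genotype. Ugt2b38 varied widely between libraries, from 0.531 to 14.0 CPM, and did not pass (-0.01 ± 0.77 in knockout and -2.51 ± 0.91 in wild type), except in wild type without HFD KO 1 (adjusted p = 0.036).

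The Ugt3 genes use other sugars than glucuronate, Ugt3a1 transferring N-acetylglucosamine in humans. Ugt3a1 (chromosome 15, 9276888 to 9315032) had 119, 144, 128, 102 and 124 CPM in HFD KO livers, 143, 95.5, 112 and 103 CPM in HFD WT livers, 231, 241, 215 and 209 CPM in chow KO livers, and 212, 196 and 208 CPM in chow WT livers. All HFD livers lay below all chow livers in both genotypes, with changes of -0.86 ± 0.11 (adjusted p = 1.1e-05) in knockout and -0.86 ± 0.12 (adjusted p = 5.0e-05) in wild type. Its neighbour Ugt3a2 had 394, 403, 432, 317 and 371 CPM in HFD KO livers, 404, 329, 366 and 329 CPM in HFD WT livers, 518, 529, 518 and 501 CPM in chow KO livers, and 524, 474 and 451 CPM in chow WT livers. It fell, at log2 -0.43 ± 0.09 in knockout (adjusted p = 0.0011) and -0.44 ± 0.10 in wild type (adjusted p = 0.0030), and both calls were lost on library totals alone, in knockout (log2 -0.10, adjusted p = 0.41) and in wild type (log2 -0.18, adjusted p = 0.24). With the ribosomal RNA gene also left out of those totals the knockout call was kept (log2 -0.23, adjusted p = 0.030). The wild-type call was not (log2 -0.21, adjusted p = 0.080).

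**Figure D3:**
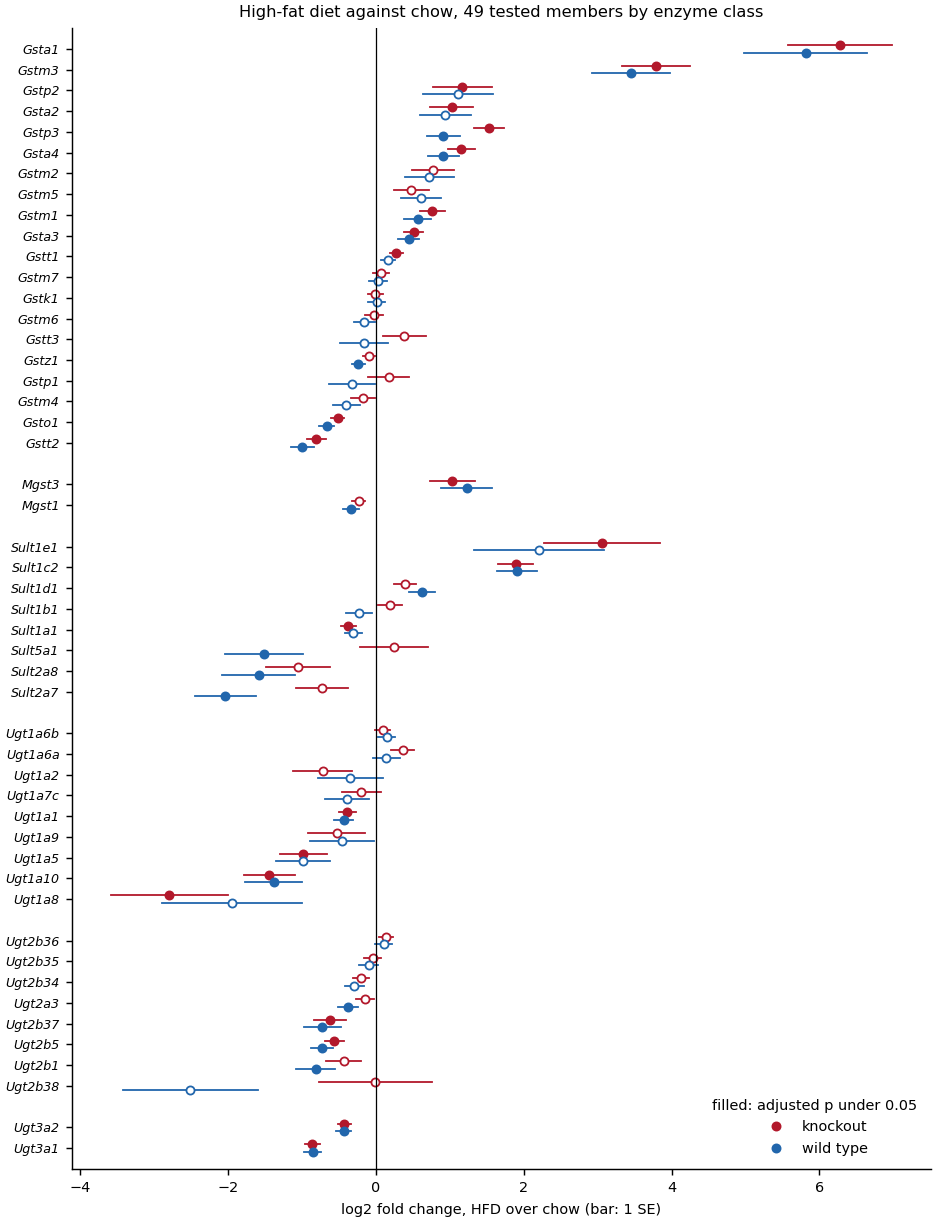
Log2 fold change of high-fat diet over chow (horizontal axis, with 1 SE) for the 49 tested members, grouped by enzyme class, in knockout (red) and wild type (blue); filled points passed at adjusted p under 0.05. Filled points right of 0 are Gst, Mgst and Sult genes, and every filled Ugt point lies left of 0 on this TMM scale; on library totals alone Ugt1a6a, Ugt1a6b and Ugt2b36 passed as higher.

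Most members moved in the same direction on diet in both genotypes. Across the 49 members, the knockout and wild-type log2 fold changes had r = 0.93 (rho = 0.89, r = 0.95 without HFD KO 1) and the same sign in 44, with a median absolute gap of 0.15. This is a description over genes, which share libraries and depth. Both genotypes called 8 members higher, namely Gsta1, Gsta3, Gsta4, Gstm1, Gstm3, Gstp3, Mgst3 and Sult1c2, and 8 lower, namely Gsto1, Gstt2, Ugt1a1, Ugt1a10, Ugt2b37, Ugt2b5, Ugt3a1 and Ugt3a2. Of all genes, 11.2% were called higher and 10.2% lower in both genotypes, with all libraries. For the 15 members called in 1 genotype and not the other, the test of the difference between genotypes called none. A total of 18 members passed in neither genotype with all libraries. Leaving out HFD KO 1 added Gsta2, Gstm2 and Sult1d1 to the members higher in both. It added Sult2a8 and Ugt1a5 to those lower in both and removed Ugt2b37.

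Summed per length, Gst transcripts were 5020 ± 654 TPM in HFD KO (SD, n = 5) and 4150 ± 224 TPM in HFD WT (n = 4), against 2901 ± 158 TPM in chow KO (n = 4) and 2897 ± 442 TPM in chow WT (n = 3), with no overlap between diets. In CPM the same sums were 4238 ± 423 in HFD KO, 3600.0 ± 297 in HFD WT, 3184 ± 162 in chow KO and 3131 ± 322 in chow WT, and the diets overlapped. Sult sums were 537 ± 77.3 TPM in HFD KO, 502 ± 57.2 in HFD WT, 618 ± 49.6 in chow KO and 626 ± 17.1 in chow WT. Ugt3 and Ugt8 sums were 402 ± 52.9 TPM in HFD KO, 375 ± 35.3 in HFD WT, 490 ± 20.3 in chow KO and 468 ± 45.0 in chow WT, and both sums overlapped between diets. Ugt1a sums were 1153 ± 212 TPM in HFD KO and 1083 ± 101 in HFD WT. On chow they were 1225 ± 105 in KO and 1208 ± 168 in WT. Ugt2 sums were 2582 ± 363 TPM in HFD KO and 2212 ± 269 in HFD WT. On chow they were 2578 ± 380 in KO and 2501 ± 193 in WT. Mgst sums were 1913 ± 301 TPM in HFD KO and 1881 ± 93.0 in HFD WT. On chow they were 1824 ± 131 in KO and 1969 ± 120 in WT. In CPM the Sult sums were 514 ± 130.4 in HFD KO, 454 ± 93.5 in HFD WT, 764 ± 47.6 in chow KO and 758 ± 35.6 in chow WT, and the diets overlapped at HFD KO 1. The Ugt3 and Ugt8 sums in CPM were 507 ± 55.6 in HFD KO, 470.4 ± 55.9 in HFD WT, 741 ± 25.5 in chow KO and 689 ± 41.4 in chow WT, with no overlap between diets. The direction for all 56 members together depended on the scale: 11607 ± 1375 TPM in HFD KO, 10203 ± 583 in HFD WT, 9636 ± 501 in chow KO and 9669 ± 720 in chow WT, but in CPM 10586 ± 946 in HFD KO, 9375 ± 935 in HFD WT, 11089 ± 617 in chow KO and 10853 ± 348 in chow WT. These sums are descriptions with no test. Gene length is not the only difference between the 2 scales, since TPM took no TMM scaling. TMM factors of 1.02 to 1.18 in HFD libraries and 0.855 to 0.966 in chow libraries entered CPM alone. The part of each step in these differences was not tested.

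Lists of genes that work with the conjugation enzymes are counted beside all genes, of which 17.4% were called higher and 16.2% lower in knockout, and 15.2% and 14.2% in wild type. Of 14 cofactor supply genes, 3 passed as higher and 2 as lower in knockout, and 3 and 1 in wild type, or 4 and 1 in each genotype without HFD KO 1. Ugp2 and Ugdh, which make UDP-glucose and UDP-glucuronate for the Ugt enzymes, both rose. The change of Ugp2 was 1.30 ± 0.16 in knockout (adjusted p = 1.3e-05) and 1.35 ± 0.18 in wild type (adjusted p = 4.3e-05), and that of Ugdh 0.71 ± 0.17 in knockout (adjusted p = 0.0041) and 0.68 ± 0.19 in wild type (adjusted p = 0.014). Papss1, a PAPS synthase that supplies the Sult enzymes, rose by 1.14 ± 0.22 in knockout (adjusted p = 6.4e-04) and 1.48 ± 0.26 in wild type (adjusted p = 3.3e-04). Gsr, which regenerates glutathione, fell, at log2 -0.40 ± 0.08 in knockout (adjusted p = 0.0012) and -0.32 ± 0.09 in wild type (adjusted p = 0.015), and Gclc and Gclm, which make it, did not pass.

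Among 6 tested genes for export and cleavage of conjugates, 2 were higher in knockout and 1 in wild type, or 3 and 2 without HFD KO 1, and none was lower. The exporter Abcc1 changed by 0.77 ± 0.24 in knockout (adjusted p = 0.019) and 1.81 ± 0.29 in wild type (adjusted p = 1.8e-04) and the beta-glucuronidase Gusb by 0.36 ± 0.11 in knockout (adjusted p = 0.022). Of 10 other conjugating enzymes, 4 were higher and 0 lower in knockout, and 2 higher and 2 lower in wild type. Without HFD KO 1 the counts were 4 and 2 in knockout and 2 and 3 in wild type. The histamine methyltransferase Hnmt rose by 1.52 ± 0.13 in knockout (adjusted p = 2.1e-07) and 1.202 ± 0.14 in wild type (adjusted p = 1.1e-05) and the thiopurine methyltransferase Tpmt by 0.82 ± 0.09 in knockout (adjusted p = 5.1e-06) and 0.41 ± 0.11 in wild type (adjusted p = 0.0068). Nat8, an acetyltransferase that finishes mercapturates, fell in wild type (log2 -1.32 ± 0.30, adjusted p = 0.0036).

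Of 14 regulators, 2 were higher and 7 lower in knockout, and 2 higher and 5 lower in wild type, or 2 and 6 in knockout and 2 and 5 in wild type without HFD KO 1. Nfe2l2, which encodes NRF2, had 71.2 to 107 CPM in HFD KO livers, 89.6 to 111 CPM in HFD WT livers, 59.4 to 66.1 CPM in chow KO livers, and 56.4 to 71.6 CPM in chow WT livers and rose by 0.60 ± 0.11 in knockout (adjusted p = 3.2e-04) and 0.57 ± 0.12 in wild type (adjusted p = 0.0018). Nr1i3, which encodes CAR, had 111 to 155 CPM in HFD KO livers, 102 to 148 CPM in HFD WT livers, 255 to 319 CPM in chow KO livers, and 234 to 303 CPM in chow WT livers and fell, at log2 -1.09 ± 0.13 in knockout (adjusted p = 6.8e-06) and -1.08 ± 0.14 in wild type (adjusted p = 3.7e-05). Hnf4a, a hepatocyte identity factor, fell, at log2 -0.98 ± 0.09 in knockout (adjusted p = 8.1e-07) and -0.88 ± 0.11 in wild type (adjusted p = 1.2e-05), and Cux2, a female-biased repressor, fell, at log2 -1.43 ± 0.41 in knockout (adjusted p = 0.012) and -1.39 ± 0.49 in wild type (adjusted p = 0.040).

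Benchmark genes of the same regulators were called in both directions. Of 8 NRF2 targets, 4 were higher and 1 lower in knockout, and 4 higher and 0 lower in wild type, or 4 and 0 in each without HFD KO 1, with the quinone reductase Nqo1 at 1.04 ± 0.24 in knockout (adjusted p = 0.0031) and 0.95 ± 0.28 in wild type (adjusted p = 0.016). The haem oxygenase Hmox1 rose by 0.84 ± 0.13 in knockout (adjusted p = 1.1e-04) and 1.64 ± 0.16 in wild type (adjusted p = 1.3e-06) and Srxn1 by 0.57 ± 0.19 in knockout (adjusted p = 0.030) and 0.61 ± 0.22 in wild type (adjusted p = 0.047). The cystine carrier Slc7a11 also passed as higher in both, at no more than 3.06 CPM and at 0 CPM in all chow WT livers. Of 5 CAR and PXR targets, 1 was higher and 2 lower in knockout and 1 and 1 in wild type, with and without HFD KO 1. Their median log2 fold change was -0.30 in knockout and 0.13 in wild type. The 1 higher gene was the cytochrome P450 Cyp2c55, which rose by 1.87 ± 0.31 in knockout (adjusted p = 1.6e-04) and 1.43 ± 0.35 in wild type (adjusted p = 0.0050). Of 4 AHR targets tested, 1 was higher and 1 lower in knockout and 2 and 1 in wild type, with and without that library. Cyp1a2 fell, at log2 -0.83 ± 0.29 in knockout (adjusted p = 0.043) and -1.56 ± 0.33 in wild type (adjusted p = 0.0034), while Tiparp rose by 0.48 ± 0.12 in knockout (adjusted p = 0.0060) and 0.55 ± 0.14 in wild type (adjusted p = 0.0068).

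Sex-biased liver genes were counted in the same way. Of 10 male-biased genes, 3 fell and 1 rose in knockout, or 8 and 1 without HFD KO 1, and 7 fell and 0 rose in wild type, or 8 and 0 without it. Elovl3, a fatty acid elongase, fell, at log2 -3.20 ± 0.42 in knockout (adjusted p = 9.8e-05) and -3.10 ± 0.47 in wild type (adjusted p = 3.8e-04). Of 8 female-biased genes tested, 3 rose and 1 fell in each genotype, with and without HFD KO 1. Cyp2b13 rose by 8.37 ± 0.61 in knockout (adjusted p = 5.9e-07) and 8.03 ± 0.70 in wild type (adjusted p = 3.5e-06). The filter on low counts could be passed on HFD libraries alone. Of the 8 genes, 4 lay above 0 in knockout (median 0.36) and 6 in wild type (median 0.64). The part of these programmes in the conjugation genes was not tested.

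Markers of cell types also differed between diets. Of 13 hepatocyte markers, 1 rose and 8 fell in knockout, or 1 and 10 without HFD KO 1, and 0 rose and 10 fell in wild type in both fits. Of 14 macrophage markers, 6 rose and 1 fell in knockout and 10 and 0 in wild type, or 4 and 3 in knockout and 11 and 0 in wild type without HFD KO 1, with summed levels of 414 to 772 CPM in HFD KO, 429 to 786 CPM in HFD WT, 326 to 381 CPM in chow KO and 174 to 349 CPM in chow WT livers. Of 14 stellate cell markers, 10 rose and 1 fell in knockout and 11 and 0 in wild type, with sums of 559 to 670 CPM in HFD KO, 552 to 865 CPM in HFD WT, 332 to 479 CPM in chow KO and 322 to 382 CPM in chow WT. Of 12 endothelial markers, 0 rose and 4 fell in knockout, or 1 and 5 without HFD KO 1, and 5 rose and 0 fell in wild type. Cholangiocyte genes gave 2 and 0 of 6 in each genotype, neutrophil genes 1 and 0 of 3 in knockout and 3 and 0 in wild type, erythroid genes 0 and 0 of 6 in knockout, or 2 and 1 without HFD KO 1, and 5 and 0 in wild type, adipocyte genes 1 and 0 of 2 in each, and T, NK and B cell genes 0 in both, with 1 B cell gene higher in wild type without HFD KO 1. The counts not given without that library were the same in that fit. The part of cell composition in the members' changes was not tested.

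On high-fat diet, no member differed between knockout and wild-type livers at the threshold. The edgeR test called 0 of 49 members and 0.00594% of all genes, DESeq2 and limma voom called 0 members, and 2 members had an unadjusted p under 0.05, against 3.81% of all genes. The median log2 fold change over the members was 0.14, beside 0.00 over all genes, and 38 of 49 lay above 0, beside 8599 of all 16830 genes tested. Of 20 Gst genes 18 lay above 0, and of 8 Ugt2 genes all 8. The median without HFD KO 1 was 0.15, and 39 of 49 members, 17 of 20 Gst genes and 8 of 8 Ugt2 genes lay above 0. These genes share libraries and, in part, reads, and no test was made over them.

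The smallest unadjusted p was that of Sult5a1 at log2 1.03 ± 0.48 (edgeR unadjusted p = 0.046), with 1.97, 0.748, 2.64, 0.384 and 1.35 CPM in HFD KO livers and 0.535, 0.556, 0.716 and 1.01 CPM in HFD WT livers, which overlapped. Gstp1 followed at 0.59 ± 0.28 (edgeR unadjusted p = 0.050), or 0.21 without HFD KO 1. Ugt2b35, Gsta2, Ugt2b36 and Ugt2b5 had log2 fold changes of 0.23, 0.59, 0.19 and 0.26, each with an adjusted p of 1.00. Their HFD KO and HFD WT ranges overlapped. Among the other members at the highest levels, Mgst1 was at 0.03 ± 0.09, Gstm1 at 0.29 ± 0.16, Gsta3 at 0.12 ± 0.13, Ugt1a1 at 0.09 ± 0.11 and Ugt3a2 at 0.10 ± 0.09. Over all 49 members the values ran from -0.46 (Ugt1a2) to 1.54 (Ugt2b38).

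Leaving out HFD KO 1 changed which members stood out. In that fit 5 members had an unadjusted p under 0.05, all of them Gst genes, against 3.75% of all genes, and the edgeR test still called none. Gsta1 was at log2 0.85 (edgeR unadjusted p = 0.0033), with 23.9 to 51.7 CPM in the 4 remaining HFD KO livers and 17.3 to 25.6 CPM in HFD WT livers, which overlapped in a narrow range. Gstm1 was at 0.42 (edgeR unadjusted p = 0.0033), Gsta2 at 0.71 (edgeR unadjusted p = 0.022), Gstm4 at 0.39 (edgeR unadjusted p = 0.0054) and Gsta4 at 0.37 (edgeR unadjusted p = 0.041). Their adjusted p over all genes was 1.00. The Gsta1 copies summed had 0.82 and the Gstm1 copies 0.44 in the same fit (adjusted p = 1.00 for both).

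**Figure D4:**
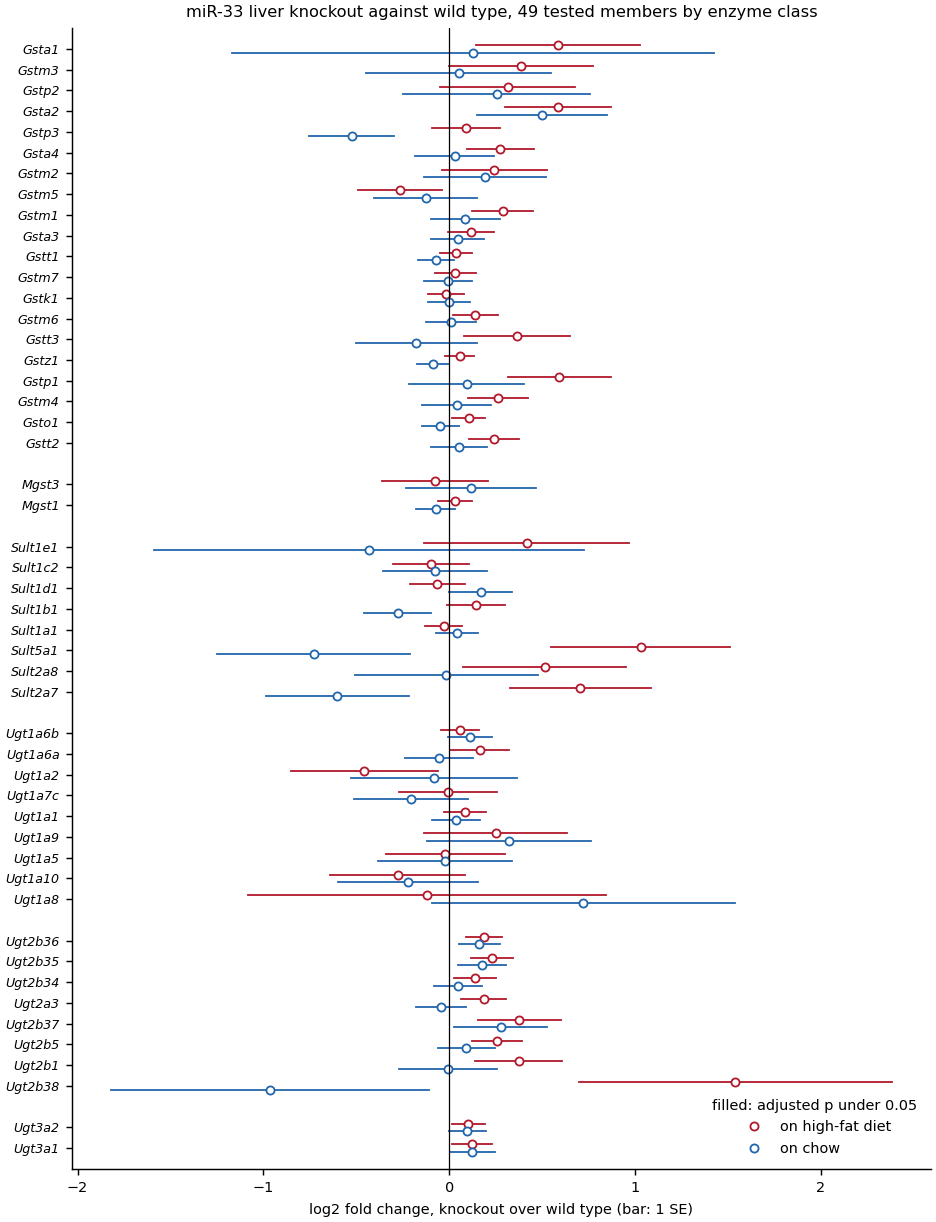
Log2 fold change of knockout over wild type (horizontal axis, with 1 SE) for the 49 tested members, grouped by enzyme class, on high-fat diet (red) and on chow (blue); a filled point would mark adjusted p under 0.05. No point is filled, and on high-fat diet 38 of 49 points lie right of 0, beside 8599 of all 16830 genes tested.

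On chow, 0 of 49 members passed in edgeR, DESeq2 or limma voom, where edgeR called 0.00594% of all genes. The median was 0.03 beside 0.00 over all genes, 26 of 49 lay above 0, and 1 member had an unadjusted p under 0.05, against 5.95% of all genes. That member was Gstp3, at log2 -0.53 ± 0.23 (edgeR unadjusted p = 0.033, adjusted p = 0.83), with 5.43, 3.02, 4.25 and 4.86 CPM in chow KO livers and 5.88, 5.82 and 7.22 CPM in chow WT livers, which did not overlap. Gsta1 was at 0.13 ± 1.30, where the SE of more than 1 log2 unit stands beside few reads on chow. The members with the next smallest p were Sult2a7 at -0.60 ± 0.39, Sult1b1 at -0.28 ± 0.18, Ugt2b36 at 0.16 ± 0.11, Gsta2 at 0.50 ± 0.35 and Sult5a1 at -0.73 ± 0.52. Of the most abundant members, Mgst1 was at -0.07 ± 0.10, Gstm1 at 0.09 ± 0.19, Ugt2b5 at 0.09 ± 0.15 and Ugt1a1 at 0.04 ± 0.13.

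The knockout effect did not differ between diets for any member at the threshold. The test of the difference called 0 of 49 members and 0% of all genes in edgeR, and 0 members in DESeq2 and limma voom. An unadjusted p under 0.05 was seen for 3 members, against 6.6% of all genes. They were Sult5a1 at 1.76 ± 0.71 (adjusted p = 0.70), Sult2a7 at 1.31 ± 0.54 (adjusted p = 0.70) and Gstp3 at 0.62 ± 0.29 (adjusted p = 0.75). Next came Ugt2b38 at 2.50 ± 1.198, Sult1b1 at 0.42 ± 0.24 and Ugt2a3 at 0.23 ± 0.18. Ugt2b38 had 14.0 CPM in chow WT 2, against 1.55 and 2.37 CPM in the other chow WT livers. A p that misses the threshold does not show that the genotypes act alike: for Gsta4 the SE of the difference was 0.28, and for Gsta1 it was 1.40.

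The deleted microRNA represses transcripts that pair with its seed, shown here because it is what the knockout removes. It lies in an intron of Srebf2, and the gene counts hold no row for it, so the knockout itself was not checked here. Its mature sequence from RefSeq on GRCm38.p6 has the seed, bases 2 to 8, in capitals.
mmu-miR-33-5p (chr15:82198127-82198147, + strand): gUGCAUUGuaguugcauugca
The 7-letter match CAATGCA occurs in the longest annotated 3' untranslated region of 3 of 49 tested members, Ugt2b34, Ugt2b35 and Ugt2b37, or 6.12%, against 7.53% (985 of 13089) of all tested genes with such an annotated region. On high-fat diet their knockout log2 fold changes were 0.14 ± 0.11, 0.23 ± 0.11 and 0.38 ± 0.22, and on chow they were 0.05 ± 0.13, 0.18 ± 0.13 and 0.28 ± 0.25. None passed (adjusted p = 0.91 or higher), and the levels of the 3 genes in knockout and wild-type livers overlapped on both diets. A match of letters is no measured site.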

How the data were processed

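Total RNA of snap-frozen liver was depleted of ribosomal RNA and sequenced in 16 libraries, per the labels' protocols. The authors trimmed reads, aligned them with TopHat2 and quantified them with Cuffdiff, per the labels' protocols, on mm10, per the submitters' processing notes. For the versions, annotation and strand setting, the labels name none. The deposited values are estimated counts per gene, neither scaled to depth nor to length as the values themselves show. No label names the tool that made them, or how it counted reads shared by near copies or antisense genes.

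Estimated counts were rounded to whole numbers. edgeR 4.0.16 (R 4.3.3) was used with filterByExpr over the 4 groups, TMM scaling and a robust quasi-likelihood fit with 12 residual degrees of freedom, and p-values were adjusted by Benjamini-Hochberg over 16830 genes. SE is the log2 fold change divided by the root of F. TPM used exonic lengths of GENCODE M21, which matched all 56 members and 22309 of 23258 rows. Shared windows of 75 bases were counted against M21 transcripts. Alternatives were other size factors, 2 filters, DESeq2 1.42.0, limma 3.58.1 voom, fewer groups, leaving out libraries, sums over near copies and totals alone, the last 2 chosen after seeing the data. The fit was tested on simulated counts. No simulated library stood apart and near copies shared no reads, so those features of the data were not covered.

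In each comparison all passing members are named, or the 6 with the smallest p where fewer than 6 pass, besides the 10 with the highest mean CPM and at most 4 genes of each related list. The members and lists were chosen with earlier results of these data known. Replicate numbers follow the order of deposit and pair nothing. Depth ran from 15888436 to 29469645 estimated counts. Members at a few counts per library, such as Sult1e1, are measured with large counting error.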

Additional observations from a re-analysis of the deposited data

Results flagged for a closer look

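The 37 members named by the rule were screened in the 3 groups of 4 or 5 libraries. Of these 111 combinations, 6 had 1 library apart from the others, where chance gives about 1 in 20. Gstp1 had 1233 CPM in HFD KO 1, against 453 to 531 CPM in the other HFD KO livers. Gstp2, a near copy of Gstp1, had 3.98 CPM in HFD KO 1, against 1.05 to 1.88 CPM. Ugt1a10 had 0.421 CPM in HFD KO 1, against 1.08 to 1.21 CPM. Thus 3 of the 6 fell in HFD KO 1, and Gstp1 and Gstp2 share part of their windows. All 3 values lay outside the range of the chow livers. These held 404 to 668 CPM of Gstp1, 0.329 to 1.06 CPM of Gstp2 and 1.95 to 4.42 CPM of Ugt1a10.

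Gstm3 had 141.8 CPM in HFD WT 2, against 79.2 to 81.5 CPM in the other HFD WT livers. Sult2a7 had 0.417 CPM in HFD WT 2, against 0.994 to 1.05 CPM. Ugt1a8 had 0.593 CPM in HFD KO 4, against 0 to 0.140 CPM in the other HFD KO livers, which are a few reads.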

How the results depend on the processing

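No paired analysis was possible because replicate numbers follow the order of deposit and pair no libraries. Of the diet calls, 10 of 12 higher and 8 of 11 lower in knockout, and 5 of 9 higher and 6 of 15 lower in wild type, held in all alternatives planned. The 5 in wild type were Gsta1, Gstm3, Gsta4, Gstp3 and Sult1c2, and the 6 were Gsto1, Gstt2, Sult2a7, Ugt2b5, Ugt3a1 and Ugt3a2. Leaving out 1 library gave 10 to 14 members higher and 9 to 12 lower in knockout, and 5 to 12 higher and 7 to 18 lower in wild type. The 5 came without chow WT 2 and the 7 without HFD WT 2, and 9 were lower without HFD WT 4, chow WT 1 or chow WT 2. Over the 16592 to 17290 genes tested, the same fits called 2422 to 3092 higher and 2209 to 2766 lower in knockout. In wild type they called 1973 to 2737 genes higher and 1738 to 2383 lower, the fewest without chow WT 2. Leaving out HFD WT 2 gave 2097 genes higher and 1817 lower in wild type. No knockout effect or difference was called for a member in any of these fits.

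On library totals alone, 22 members were higher and 4 lower in knockout, and 17 and 6 in wild type. With the ribosomal gene also left out of those totals the counts were 19 and 7 in knockout, and 17 and 7 in wild type. Of all genes, 41.2% were higher and 4.77% lower in knockout on totals alone, and 28.2% and 4.21% in wild type; without the ribosomal gene the shares were 31.1% and 7.16% in knockout, and 27.7% and 5.19% in wild type. These scalings move the centre of all genes and so the balance of calls. On totals alone the sign turned for Gstz1 in wild type (0.0174) and, in knockout, for Mgst1 (0.10), Gstz1 (0.23, or 0.11 without the ribosomal gene) and Ugt2b34 (0.13). In the knockout effect on chow it turned for Gsta3 (-0.034), Ugt1a1 (-0.0384) and Ugt2b34 (-0.0266).

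The other reversals were of values near 0, and their cause was not tested. The knockout diet effect of Gstp1 was -0.19 without HFD KO 1 and chow WT 3 together, and -0.19 to 0.27 when 1 library was left out. With 1 library left out, the knockout effect of Mgst1 on high-fat diet ranged from -0.0448 to 0.081. On chow the ranges were -0.0358 to 0.26 for Gstm1, -0.11 to 0.26 for Gsta3, -0.0429 to 0.10 for Ugt1a1, -0.0703 to 0.22 for Gstp1 and -0.0425 to 0.16 for Ugt2b34. In the difference they were -0.14 to 0.23 for Gsta3, -0.0174 to 0.15 for Ugt1a1, -0.0271 to 0.11 for Ugt2b36, -0.0189 to 0.18 for Ugt2b34 and -0.0559 to 0.0706 for Ugt3a2. Ugt3a2 was also at -0.0011 with the filter of 1 CPM in 5 libraries and at -0.0156 on totals without the ribosomal gene.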
